A study of Mus musculus with 2 samples.

Results

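The genes described here are 10 genes of the provisional and hyaluronan matrix, the loose scaffold that replaces damaged tissue before collagen is laid down: Tnc, Fn1, Postn, Vcan, Has1, Has2, Tnfaip6, Ptx3, Cd44 and Thbs1. They were taken by gene symbol, and all 10 were present among the 32285 genes of both count matrices. The samples were mononuclear cells of the quadriceps of wild-type C57 BL/6J mice, injected in the muscle with barium chloride (BaCl2, 100 µl at 1.2% w/v), which destroys fibres. Both groups were injured, and no uninjured muscle was part of the comparison. Cells were cryo-preserved, and 1 droplet library (10x 3' v3.1) was made from 2 h and 1 from 9 h after injection. The sources used here do not state the age or sex of the mice, or how many mice went into each library. The series asked about the chemokine CCL2 made by FAPs (fibro-adipogenic progenitors, the stromal cells of muscle) and about the entry of monocytes and macrophages.

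With 1 library per time there was no test, and the differences below have no replicate check. A level is in CPM, the gene's UMIs (unique molecules) summed over the cells of a class and scaled to a total of 1000000 per class. Intervals, in parentheses after a level, a share or a ratio, are exact 95% intervals that cover counting error only. A gene counted as higher or lower where the ratio of its levels was at least 2 or at most 0.5, with at least 20 UMIs over both groups. After filtering, the 2 h library held 4900 cells with 27598413 UMIs and a median of 4519 per cell, and the 9 h library held 8147 cells with 35127600 UMIs and a median of 2327. The libraries shared 12 cell barcodes among the kept cells. Clusters were made without the 10 genes and named "X-like" from marker lists, with no doublets removed. The 5 FAP-like clusters had 14 or 15 of the 15 FAP markers, and the 4 neutrophil-like clusters all 8 neutrophil markers.

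Hyaluronan is a long sugar chain spun out through the cell membrane by the synthases Has1 and Has2. Secreted proteins then tie the chains together: Tnfaip6 (TSG-6) moves heavy chains of inter-alpha-inhibitor onto hyaluronan, the pentraxin Ptx3 holds such heavy chains together, and the proteoglycan Vcan (versican) binds hyaluronan directly. Cd44 is the main cell surface receptor for hyaluronan. Fibronectin (Fn1), tenascin-C (Tnc), periostin (Postn) and thrombospondin-1 (Thbs1) are matrix and matricellular glycoproteins known from injured tissue.

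On the mm10 build, the GENCODE M21 annotation places Tnc at chr4:63959785-64047015, Fn1 at chr1:71585520-71653200 and Postn at chr3:54361109-54391037. It places Vcan at chr13:89655312-89742509, Has1 at chr17:17843323-17855205, Has2 at chr15:56665627-56694539 and Tnfaip6 at chr2:52038009-52056686. Ptx3 lies at chr3:66219910-66225805, Cd44 at chr2:102811141-102901665 and Thbs1 at chr2:118111876-118127133. All are protein-coding genes, and reads from 3' ends do not tell apart the splice forms of Fn1, Tnc, Vcan or Cd44. Has2 overlaps the antisense transcript Has2os, counted separately at 13.99 CPM at 2 h and 3.319 CPM at 9 h in FAP-like cells. The strand setting of the authors' counting was not given in the sources used here.

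RefSeq promoter windows on GRCm38.p6 (the mm10 assembly) matched 7 of the 10 genes. The window of Cd44, higher at 9 h in FAP-like cells, is not printed. The windows of Has1 and Tnfaip6, lower at 9 h in these cells, and of Ptx3 and Tnc, higher at 9 h, are printed as examples of each direction. Each is on the gene's own strand, 5′ to 3′, and ends before the first base of the gene in GENCODE M21. Their positions are chr17:17855206-17855438 (minus strand, Has1), chr2:52037863-52038008 (plus strand, Tnfaip6), chr3:66219637-66219886 (plus strand, Ptx3) and chr4:64047016-64047265 (minus strand, Tnc). Capitals mark a match to TGANTCA, the AP-1 element, or to TATAAA, the TATA box.
Has1: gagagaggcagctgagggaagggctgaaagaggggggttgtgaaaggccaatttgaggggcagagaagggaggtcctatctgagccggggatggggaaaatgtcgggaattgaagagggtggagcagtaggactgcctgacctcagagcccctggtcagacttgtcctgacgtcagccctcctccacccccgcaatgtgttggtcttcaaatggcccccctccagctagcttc
Tnfaip6: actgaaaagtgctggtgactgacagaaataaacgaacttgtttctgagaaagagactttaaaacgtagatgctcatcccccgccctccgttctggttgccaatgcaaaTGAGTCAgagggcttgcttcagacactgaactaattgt
Ptx3: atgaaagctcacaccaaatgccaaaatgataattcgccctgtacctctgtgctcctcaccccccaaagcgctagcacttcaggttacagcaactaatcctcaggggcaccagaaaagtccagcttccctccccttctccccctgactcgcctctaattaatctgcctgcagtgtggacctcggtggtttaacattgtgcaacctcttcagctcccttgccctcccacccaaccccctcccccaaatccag
Tnc: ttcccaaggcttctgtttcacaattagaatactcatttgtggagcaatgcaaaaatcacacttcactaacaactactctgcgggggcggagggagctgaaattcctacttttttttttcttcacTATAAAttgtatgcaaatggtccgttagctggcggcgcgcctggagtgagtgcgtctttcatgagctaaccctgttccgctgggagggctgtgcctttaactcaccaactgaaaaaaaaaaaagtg

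Over the 250 bases before the RefSeq start, both strands, the AP-1 element was present in the window of Tnfaip6, 142 bases before the start, and in no other of the 7 genes. It was present in 6.75% of all 32851 windows of that length. The RefSeq window of Tnfaip6 runs to chr2:52038112, past the end of the printed part at chr2:52038008. The 142 bases are therefore not counted from the end of the printed part. TATAAA was present in the windows of Tnc, 126 bases before the start of the window printed, and of Postn, 26 bases before the start of its second window, against 12.4% of all windows. A NF-kB consensus was searched by name on both strands and was in none of the 7 genes' windows, against 3.90% of all windows. No match overlapped another motif. A match describes letters and is not a bound site.

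FAP-like cells held over 50% of the UMIs of 8 of the 10 genes at 2 h, as of 69.1% of all genes, and of 8 at 9 h, as of 67.6% of all genes. They held 58.0% of all kept UMIs at 2 h and 55.8% at 9 h, so a share above 50% is common. At 2 h they were 1996 of 4900 kept cells and held 93.2% of all Has1 UMIs, 95.4% of Has2, 94.3% of Tnfaip6, 95.3% of Ptx3 and 90.2% of Vcan. At 9 h they were 2378 of 8147 cells and held 96.1% of Has1, 97.5% of Has2 and 95.6% of Ptx3 UMIs. Their share of Tnfaip6 UMIs was 70.8% at 9 h, with 16.2% in neutrophil-like cells. Tnc had another main holder at each time. Tenocyte-like cells, the tendon fibroblasts, held 87.6% of its UMIs at 2 h and FAP-like cells 6.74%, whereas at 9 h FAP-like cells held 81.6% and tenocyte-like cells 14.6%. Cd44 and Thbs1 were shared with leukocytes. Neutrophil-like cells held 51.4% of Cd44 UMIs at 2 h and 37.6% at 9 h, and 32.4% and 41.1% of Thbs1 UMIs. The neutrophil-like shares leave out an unnamed cluster with all 8 neutrophil markers, of 13 cells at 2 h and 1068 at 9 h. At 9 h it had Cd44 at 2104 CPM and Thbs1 at 7606 CPM, so the change in these shares also depends on how that cluster was named. These shares depend on how many cells of each class a library caught.

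**Figure D1:**
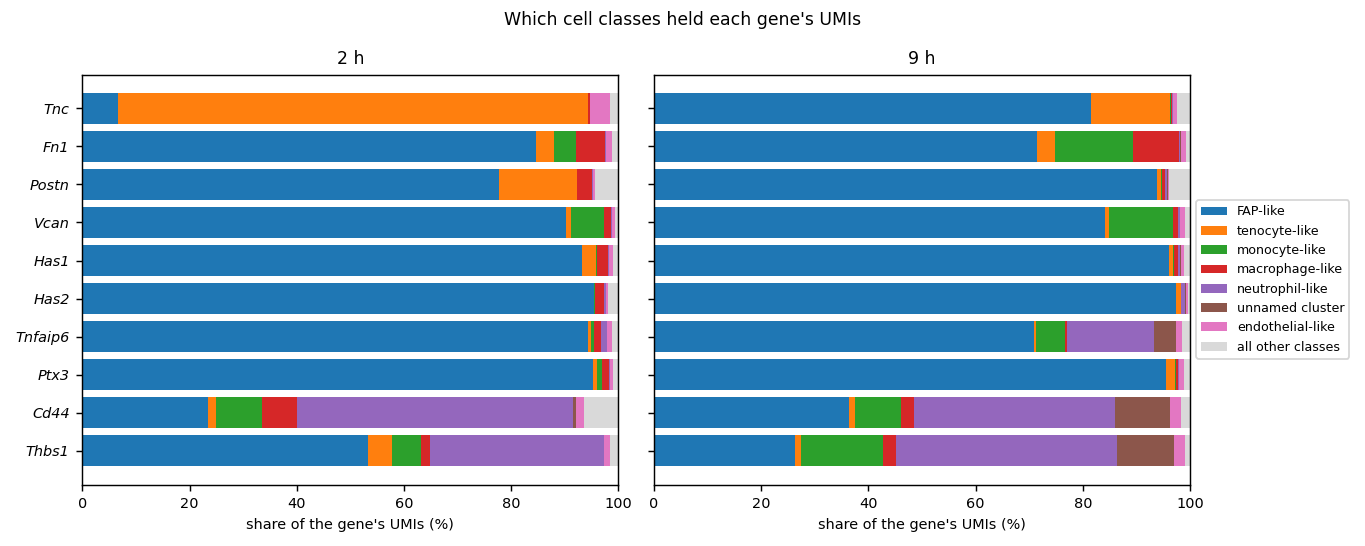
Share of each gene's UMIs (x axis, percent of all kept cells of the library) held by each cell class, at 2 h (left) and 9 h (right), 1 library each. Has1, Has2 and Ptx3 stay over 90% FAP-like at both times, Tnc is mostly tenocyte-like at 2 h and FAP-like at 9 h, and Cd44 and Thbs1 are spread over leukocytes.

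In FAP-like cells, 3 of the 10 genes were at least 2-fold higher at 9 h (Tnc, Ptx3, Cd44), where 15.5% of 13239 genes were, and 4 were at least 2-fold lower (Fn1, Has1, Has2, Tnfaip6), where 23.8% of genes were. The other 3 (Postn, Vcan, Thbs1) were within 2-fold. The median log2 ratio of the 10 genes was -0.48, beside -0.02 over all genes counted, on the log2(CPM + 10) scale. Different clusters made up the class at each time: at 2 h 1403 cells were in cluster 3 and 583 in cluster 7, and at 9 h 1642 were in cluster 2, 457 in cluster 10 and 229 in cluster 12. The summed level of the 15 FAP markers was 43016 CPM at 2 h and 17502.7 CPM at 9 h, with none at 0 at either time. The 8 neutrophil markers summed to 1444 CPM at 2 h and 2119 CPM at 9 h in FAP-like cells, and their part in the differences was not tested. With clusters 2 and 10 left out, which leaves mainly cluster 12 at 9 h, 2 genes were higher and 3 lower. The shares of all genes were not computed for that setting. The ratio was then 0.922 for Cd44, 0.971 for Fn1, 0.604 for Has2, 0.411 for Has1, 0.201 for Tnfaip6 and 0.145 for Thbs1. The 2 h side of these ratios was still clusters 3 and 7, so they also carry the difference between clusters. From cluster 7 at 2 h to cluster 12 at 9 h the ratio was 1.25 for Cd44, 0.487 for Fn1 and 0.355 for Has2. It was 0.289 for Has1, 0.140 for Tnfaip6 and 0.614 for Thbs1.

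Both hyaluronan synthases were lower at 9 h. Has1 was at 1018 (1003 to 1034) CPM at 2 h and 269 (262 to 276) CPM at 9 h, a ratio of 0.264 (0.256 to 0.273). Has2 was at 75.7 (71.5 to 80.1) CPM at 2 h and 21.6 (19.6 to 23.8) CPM at 9 h, a ratio of 0.285 (0.255 to 0.319). The intervals of the 2 times do not overlap for either gene. The share of FAP-like cells with a Has1 UMI, after each cell was thinned to 1000 UMIs, was 44.3% (42.1 to 46.6) at 2 h and 21% (19.3 to 22.7) at 9 h. Unthinned shares were 71.7% and 61.0%. Neutrophil-like cells, which should lack the gene, had a Has1 UMI in 1.05% and 0.371% of thinned cells. Median depths were 7955 and 8222 UMIs in FAP-like cells and 2015 and 1660 in neutrophil-like cells. Thinning left out 23 and 52 FAP-like and 94 and 263 neutrophil-like cells with fewer UMIs. The thinned Has2 share in FAP-like cells was 6.34% at 2 h and 1.98% at 9 h, beside 0.131% and 0.101% in neutrophil-like cells.

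The 2 genes whose products crosslink hyaluronan went opposite ways. Tnfaip6 was at 2220 (2197 to 2243) CPM at 2 h and 291 (283 to 298) CPM at 9 h, a ratio of 0.131 (0.127 to 0.135), the lowest of the 10 genes. Its thinned share of FAP-like cells went from 57.7% to 17.3%. Ptx3 was at 1558 (1538 to 1577) CPM at 2 h and 6802 (6766 to 6839) CPM at 9 h, a ratio of 4.37 (4.31 to 4.43). The share of FAP-like cells with a Ptx3 UMI was 32.1% at 2 h and 67.8% at 9 h, and the median cell had 0 and 18 Ptx3 UMIs. At 2 h Ptx3 sat in fewer cells: the 10% of FAP-like cells with most of it held 66.0% of its UMIs, beside 48.4% at 9 h.

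Vcan, the proteoglycan, was within 2-fold, and Cd44, the receptor, was higher at 9 h. Vcan was at 695 (682 to 708) CPM at 2 h and 999.6 (986 to 1014) CPM at 9 h, a ratio of 1.44 (1.40 to 1.47), and was found in 88.0% and 90.8% of unthinned FAP-like cells. Cd44 was at 326 (318 to 335) CPM at 2 h and 743 (731 to 755) CPM at 9 h, a ratio of 2.28 (2.20 to 2.35). Its thinned share was 24.6% at 2 h and 45.1% at 9 h. Neutrophil-like cells are rich in Cd44, and the amount that their RNA could carry into FAP-like cells, scaled by the neutrophil gene S100a8, was 30.8 CPM at 2 h and 39.9 CPM at 9 h. The part of neutrophil RNA in the measured Cd44 levels was not tested.

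Among the glycoproteins, Tnc had the largest ratio of the 10 genes. It was at 3.68 (2.80 to 4.75) CPM at 2 h, from 59 UMIs in 1996 cells, and at 278 (271 to 285) CPM at 9 h, from 5443 UMIs in 2378 cells. The ratio was 75.4 (58.4 to 99.2). Few cells carried it: 9.63% of thinned FAP-like cells at 9 h had a UMI, 19.8% unthinned, and the 10% of cells with most of it held 91.8% of the UMIs. In neutrophil-like cells the thinned share was 0.202% at 9 h. At 2 h 25 cells carried the 59 UMIs, and 54 of these were in 20 cells. With the clusters lacking a FAP marker among their leading genes (2 and 10) left out the ratio was 3.63. That sets mainly cluster 12 at 9 h against clusters 3 and 7 at 2 h.

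Fn1 was at 2010.1 (1988 to 2032) CPM at 2 h and 789 (777 to 802) CPM at 9 h in FAP-like cells, a ratio of 0.393 (0.385 to 0.400). Its thinned share was 56.4% and 36.9%. Thbs1 was at 2930.4 (2904 to 2957) CPM and 1833 (1814 to 1852) CPM, a ratio of 0.626 (0.617 to 0.634), in much the same share of thinned cells (50.2% and 50.6%). Postn was at 102 (97.5 to 107) CPM and 82.7 (78.7 to 86.8) CPM, a ratio of 0.807 (0.753 to 0.865). It was detected in a minority of FAP-like cells, 14.5% and 11.4% unthinned, and the 10% of cells with most of it held 94.6% of its UMIs at 2 h and 97.9% at 9 h.

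**Figure D2:**
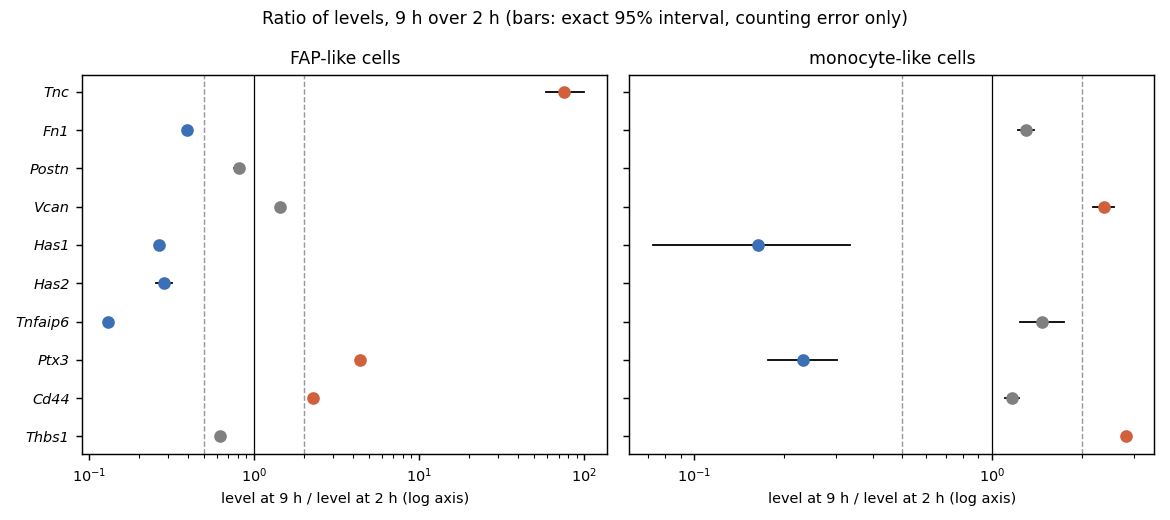
Ratio of the level at 9 h to the level at 2 h (x axis, log scale) for each gene in FAP-like cells (left) and monocyte-like cells (right), with exact 95% intervals for counting error; dashed lines mark 0.5 and 2, and genes under 20 UMIs are left blank. In FAP-like cells Tnc lies at 75.4 and Tnfaip6 at 0.131, and of the 7 genes shown in both, Fn1, Tnfaip6, Ptx3 and Thbs1 lie on opposite sides of 1 in the 2 classes, as did 43.7% of all genes.

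The FAP-like clusters of 1 time also differed in these genes. At 2 h cluster 3 (1403 cells) was led by Col15a1, Angptl1 and Abca8a, and cluster 7 (583 cells) by Sema3c, Smpd3, Pi16, Cd248, Cd55 and Dpp4, markers of the adventitial FAPs that line vessels and sheaths. At 9 h cluster 12 (229 cells) carried Pi16 at 2980 CPM with Krtdap, Dmkn and Sbsn. Cluster 10 (457 cells) was led by Saa1, Saa2, Serpina3n and Cxcl14, and cluster 2 (1642 cells) by Cxcl5, Ccl2, Hmga2, Cxcl1, Il1rl1 and Il33. Clusters 2 and 10 had no FAP marker among their 10 leading genes, though all 15 were detected in both. Cluster values describe cells grouped by their other genes, so differences between clusters are descriptions.

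At 2 h, 3 of the 10 genes were at least 2-fold higher in adventitial cluster 7 than in cluster 3 (Fn1, Postn, Has2), where 5.74% of genes were, and 2 were at least 2-fold lower (Tnc, Thbs1), where 9.07% of genes were. Fn1 was at 4125 CPM in cluster 7 and 1076 CPM in cluster 3, a ratio of 3.83 (3.75 to 3.92), and was found in 94.0% and 40.7% of thinned cells. Thbs1 was the reverse, at 495 CPM and 4001 CPM, a ratio of 0.124 (0.119 to 0.129), in 15% and 65.0% of thinned cells. Has2 was at 132 CPM in cluster 7 and 50.4 CPM in cluster 3. Tnc rested on 1 UMI in cluster 7, a ratio of 0.0391 (0.000973 to 0.227). The Has1 level was 1475 CPM and 813 CPM, and the Tnfaip6 level 3223 CPM and 1776 CPM, ratios of 1.81 and 1.82. The Ptx3 ratio was 1.41, the Vcan ratio 1.28 and the Cd44 ratio 0.634 (0.593 to 0.677).

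At 9 h the same 2 genes marked the adventitial cluster. Fn1 was at 2008 CPM in cluster 12, 705 CPM in cluster 10 and 608 CPM in cluster 2. Thbs1 was at 304, 1788 and 2089.8 CPM in that order, so cluster 12 was the highest of the 3 for Fn1 and the lowest for Thbs1. Cluster 12 exceeded cluster 10 at least 2-fold in 4 of the 10 genes (Fn1, Postn, Has1, Has2; 9.1% of genes were) and fell at least 2-fold below it in 1 (Thbs1; 5.66% of genes were). Cluster 12 exceeded cluster 2 in 2 genes (Fn1, Has2; 13.5% of genes) and was below it in 3 (Tnc, Cd44, Thbs1; 7.18% of genes). Has2 was at 47.0 CPM in cluster 12, 6.95 CPM in cluster 10 and 21.1 CPM in cluster 2. Shares held the order for Fn1, with a UMI in 79.3%, 33.2% and 31.7% of thinned cells.

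Tnc and Cd44 marked the Cxcl5 and Ccl2 cluster at 9 h. Tnc was at 389 CPM in cluster 2, 17.1 CPM in cluster 10 and 14.4 CPM in cluster 12, and 5352 of the 5443 Tnc UMIs of FAP-like cells were in cluster 2. Cd44 was at 941 CPM in cluster 2, beside 259 and 291 CPM in clusters 10 and 12. Cluster 2 exceeded cluster 10 at least 2-fold in 5 of the 10 genes (Tnc, Postn, Has2, Ptx3, Cd44), where 8.85% of genes did, and in none was it at least 2-fold lower, where 10.9% of genes were. Ptx3 was at 8006 CPM in cluster 2, 3512 CPM in cluster 10 and 5041 CPM in cluster 12.

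Set side by side by their marker genes, the clusters of the 2 times shared some of the differences. From adventitial cluster 7 at 2 h to adventitial cluster 12 at 9 h, 2 genes were at least 2-fold higher (Tnc, Ptx3; 15.5% of genes were) and 4 lower (Fn1, Has1, Has2, Tnfaip6; 16.1% of genes were). From cluster 3 to cluster 10, 2 were higher (Tnc, Ptx3; 12.8% of genes) and 4 lower (Has1, Has2, Tnfaip6, Thbs1; 21% of genes). From cluster 3 to cluster 2, 3 were higher (Tnc, Ptx3, Cd44; 18.3% of genes) and 3 lower (Has1, Has2, Tnfaip6; 26.2% of genes). The Tnc ratio between the adventitial clusters, 70.6 (11.8 to 2876), rests on 1 UMI at 2 h. Ptx3 was higher at 9 h in all 3 pairs, with ratios of 2.63, 2.59 and 5.90, and Tnfaip6 lower, with ratios of 0.140, 0.234 and 0.131. Cd44 was not shared: its ratio was 2.57 (2.48 to 2.66) to cluster 2, 0.707 (0.657 to 0.760) to cluster 10 and 1.25 (1.13 to 1.38) between the adventitial clusters. The last 2 pairs share cluster 3, and pairing by markers does not show that one cluster gave rise to another.

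**Figure D3:**
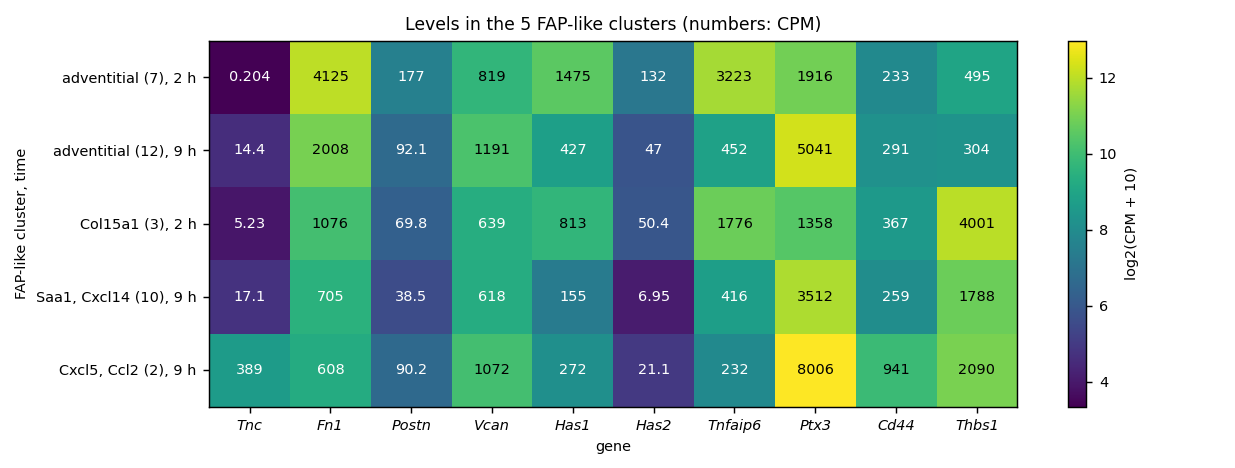
Level of each gene (columns) in the 5 FAP-like clusters (lines, with their time), coloured by log2(CPM + 10) and labelled in CPM. The adventitial clusters 7 and 12 are highest in Fn1 and lowest in Thbs1 for their time, and cluster 2 at 9 h is highest in Tnc (389 CPM), Cd44 (941 CPM) and Ptx3 (8006 CPM).

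Within finer sub-clusters of FAP-like cells the spread was wide. Over the 8 sub-clusters of at least 50 cells at 2 h, Thbs1 ranged from 112 to 7062 CPM and Ptx3 from 212 to 4095 CPM. Vcan was the most even of the genes, from 446 to 881 CPM. Over the 6 sub-clusters at 9 h, Ptx3 ranged only from 4769 to 10216 CPM, while Tnc ranged from 0.580 to 648 CPM. At 2 h the highest Cd44 level, 903 CPM, was in a sub-cluster of 93 cells that also carried the neutrophil gene S100a8 at 9814 CPM. At 9 h a sub-cluster of 255 cells carried S100a8 at 8591 CPM and had the highest Postn (178 CPM) and Thbs1 (3066 CPM) levels. With both sub-clusters left out, a check added after the data were seen, the numbers of genes at least 2-fold higher and lower in FAP-like cells stayed at 3 and 4, and the Cd44 ratio was 2.42. The shares of all genes were not computed for this check.

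Within a cluster, cells with a Has1 UMI at 2 h more often had Tnfaip6 and Ptx3 UMIs, at 1000 UMIs per cell. In cluster 3, 64.9% (60.6 to 69.0) of Has1-positive cells had a Tnfaip6 UMI, beside 44.9% (41.5 to 48.2) of Has1-negative cells. In cluster 7 the shares were 81.7% (77.3 to 85.6) and 53.2% (46.6 to 59.8). For Ptx3 they were 35.7% (31.6 to 40.0) and 19.3% (16.7 to 22.0) in cluster 3. In cluster 2 at 9 h the intervals overlapped: 18.6% (14.7 to 23.0) and 14.6% (12.6 to 16.6) for Tnfaip6, and 71.2% (66.2 to 75.8) and 73.9% (71.3 to 76.3) for Ptx3. Has1-positive cells of cluster 3 also more often had Cd44 UMIs (37.2% and 22.4%) and Fn1 UMIs (47.4% and 36.7%). In cluster 7 the intervals for Cd44 overlapped (16.3% and 17.3%). For Has2-positive and Has2-negative cells of cluster 3 they overlapped too, at 53.1% and 52.3% for Tnfaip6 and 17.2% and 25.8% for Ptx3. In clusters 3, 2 and 10, Fn1 was found in fewer Thbs1-positive than Thbs1-negative cells. In cluster 3, 34.4% (31.3 to 37.6) of Thbs1-positive and 52.5% (47.9 to 57.0) of Thbs1-negative cells had a Fn1 UMI. In cluster 2 the shares were 24.5% (21.7 to 27.4) and 41.1% (37.4 to 44.9), and in cluster 10 24.8% (19.4 to 30.8) and 42.5% (35.8 to 49.4). In adventitial cluster 7 the intervals overlapped, at 88.5% (79.9 to 94.3) and 94.9% (92.6 to 96.7). In cluster 12 they overlapped too, read as Thbs1 in 7.39% (3.99 to 12.3) of Fn1-positive and 10.9% (3.62 to 23.6) of Fn1-negative cells. Tnc-positive cells of cluster 2 had a Thbs1 UMI in 69.1% (62.5 to 75.1) and a Fn1 UMI in 20.5% (15.3 to 26.4), beside 54.5% (51.8 to 57.1) and 33.5% (31.0 to 36.1) of Tnc-negative cells. Cells of 1 library are not replicates, and these pairs are descriptions.

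Monocyte-like cells (173 at 2 h, 357 at 9 h) carried mainly Thbs1, Cd44, Fn1 and Vcan, which FAP-like cells carried too. Of the 7 genes with enough UMIs, 2 were at least 2-fold higher at 9 h (Vcan, Thbs1), where 5.71% of 7814 genes were, and 2 lower (Has1, Ptx3), where 14.4% of genes were. Thbs1 was at 3574 (3473 to 3676) CPM at 2 h and 10105 (9968 to 10243) CPM at 9 h, a ratio of 2.83 (2.74 to 2.92), with a median of 21 and 54 UMIs per cell. Vcan was at 568 (528 to 609.6) CPM and 1348 (1298 to 1399) CPM, a ratio of 2.37 (2.19 to 2.57), in 30.8% and 66.0% of thinned cells. Neutrophil-like cells had a Vcan UMI in 0.919% and 0.910%. Fn1 was at 1183 (1125 to 1242) CPM and 1541 (1488 to 1596) CPM (ratio 1.30), and Cd44 at 1429 (1365 to 1494) CPM and 1669.7 (1614 to 1726) CPM (ratio 1.17). Estimates of carried-over FAP RNA, scaled by the FAP gene Dcn, were 44.9 and 3.38 CPM for Fn1, and 15.5 and 4.28 CPM for Vcan. The 8 neutrophil markers summed to 3485 CPM at 2 h and 6334 CPM at 9 h in these cells and the 15 FAP markers to 966 and 176 CPM, with 1 FAP marker at 0 at 9 h. The S100a8-scaled estimate of carried-over neutrophil RNA was 182 and 494 CPM for Thbs1, and its part in the ratio was not tested.

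The Ptx3, Tnfaip6 and Has1 levels of monocyte-like cells at 2 h rested on 1 or 2 cells. Of the 219 Ptx3 UMIs at 2 h, 210 were in 1 cell, and of the 195 Tnfaip6 UMIs, 127 were in 1 cell. Ptx3 was at 163 CPM at 2 h and 37.9 CPM at 9 h, a ratio of 0.233. Without the 1% of cells with most Ptx3 the ratio was 3.32, and without the cells of the highest doublet scores 3.38, so the direction reversed. Tnfaip6 was at 145 and 213 CPM, a ratio of 1.47 that was 3.94 and 5.54 under the same changes. At 9 h its UMIs were spread over 33.1% of unthinned monocyte-like cells, and the Dcn-scaled estimate was 1.24 CPM. Has1 had 40 UMIs at 2 h, 28 of them in 2 cells, and 10 at 9 h. Its levels, 29.7 and 4.86 CPM, stood beside Dcn-scaled estimates of 22.7 and 1.15 CPM. Has2 had 0 UMIs at 9 h, which allows up to 1.46 CPM by a limit of 3 counts, where the exact interval drawn in the plot of levels ends at 1.79 CPM.

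Set beside each other at 9 h, monocyte-like cells were above FAP-like cells in Fn1, Vcan, Cd44 and Thbs1. The FAP-like to monocyte-like ratio of levels was 1.70 (1.62 to 1.79) for Fn1 at 2 h and 0.512 (0.493 to 0.532) at 9 h. For Vcan it was 1.22 (1.14 to 1.32) at 2 h and 0.742 (0.713 to 0.772) at 9 h, and for Thbs1 0.820 (0.796 to 0.845) and 0.181 (0.178 to 0.185). The order of the 2 classes thus turned between the times for Fn1 and Vcan, and for Cd44 it did not (0.229 and 0.445). The turn of Fn1 depended on which FAP-like clusters made up the class. At 2 h cluster 3 (1076 CPM) was below monocyte-like cells (1183 CPM) and adventitial cluster 7 (4125 CPM) above them. At 9 h clusters 10 and 2 (705 and 608 CPM) were below monocyte-like cells (1541 CPM) and adventitial cluster 12 (2008 CPM) above them. A check without clusters 2 and 10, which leaves mainly cluster 12 at 9 h, was added after the data were seen. FAP-like cells were then at 1951 CPM for Fn1 at 9 h, and the ratio to monocyte-like cells was 1.27. For Vcan the ratio was then 0.842.

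**Figure D4:**
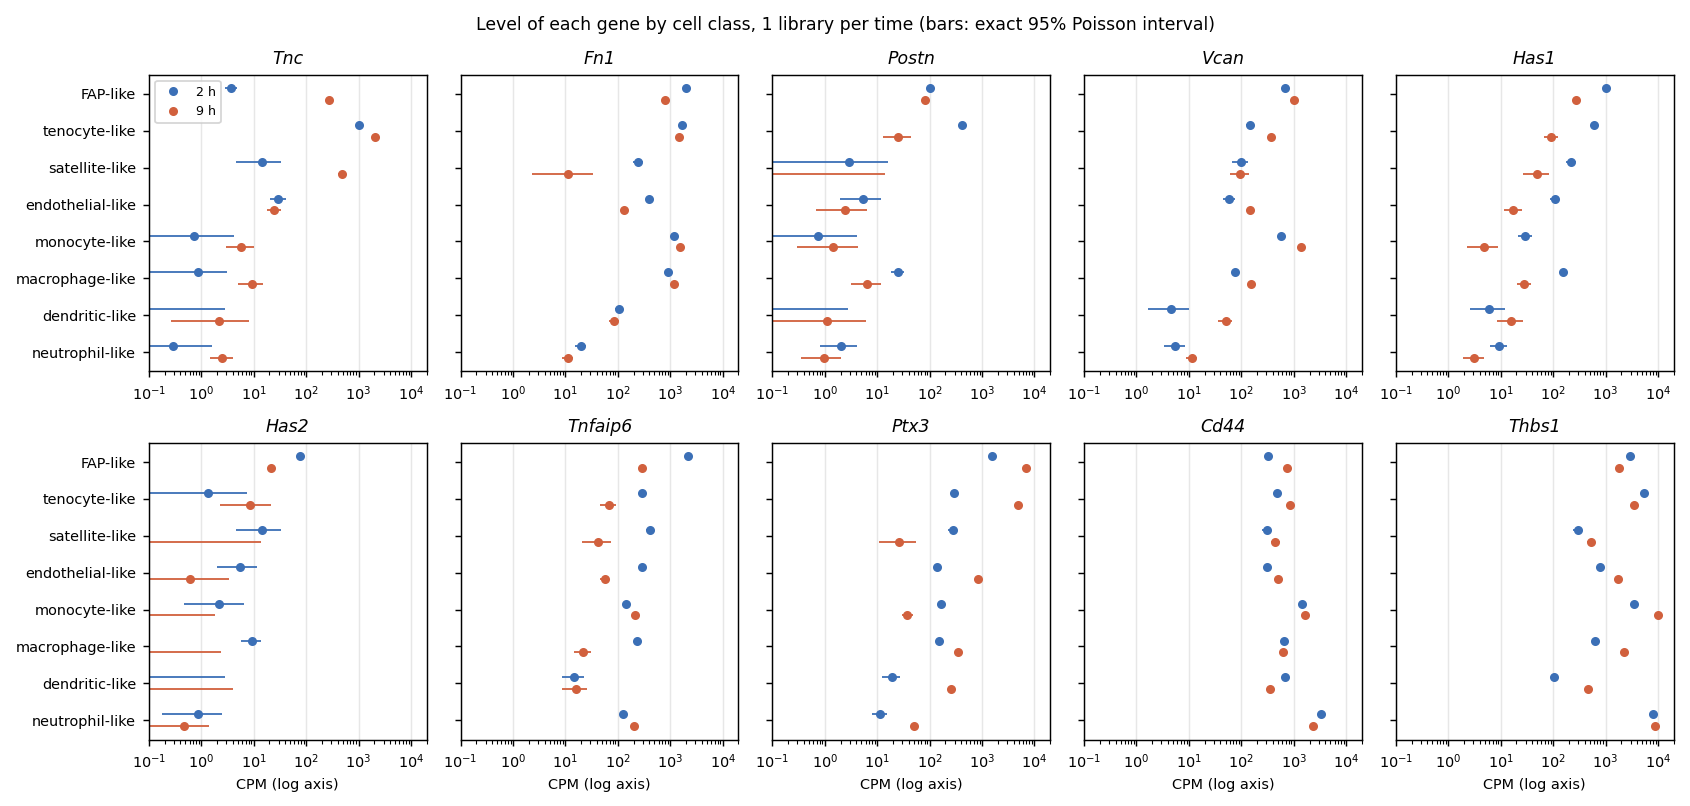
Level of each gene (CPM, log axis) in 8 cell classes with at least 50 cells in each library, at 2 h (blue) and 9 h (orange); bars are exact 95% Poisson intervals, cut at the left edge, and a class with 0 UMIs shows a bar without a point. FAP-like cells are the highest class at both times for Has1, Has2, Tnfaip6 and Ptx3, and tenocyte-like cells for Tnc; with TMM scaling neutrophil-like cells are the highest for Tnfaip6 at 9 h.

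Over classes with at least 50 cells, FAP-like cells had the highest level of 6 genes at 2 h (Fn1, Vcan, Has1, Has2, Tnfaip6, Ptx3), as of 10.8% of all genes, and of 5 at 9 h (Postn, Has1, Has2, Tnfaip6, Ptx3), as of 14.5%. At 9 h monocyte-like cells led for Fn1, Vcan and Thbs1, neutrophil-like cells for Cd44 and tenocyte-like cells for Tnc. TMM scaling, which raises neutrophil-like levels, turned 2 of these at 9 h: Thbs1 was then at 21679 scaled CPM in neutrophil-like and 11119.9 in monocyte-like cells, and Tnfaip6 at 502 scaled CPM in neutrophil-like and 257 in FAP-like cells. Several neighbours in these orders had overlapping intervals. For Fn1 at 9 h, monocyte-like cells at 1541 (1488 to 1596) CPM and tenocyte-like cells at 1492 (1385 to 1606) CPM overlapped, followed by macrophage-like cells at 1182 (1128 to 1237) CPM and then FAP-like cells.

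Neutrophil-like cells were rich in Thbs1 and Cd44. Thbs1 was at 8202 (8107 to 8298) CPM at 2 h and 8880.0 (8807 to 8954) CPM at 9 h (ratio 1.08), in 83.7% and 88.3% of thinned cells. Cd44 was at 3303 (3243 to 3364) CPM and 2380 (2342 to 2418) CPM (ratio 0.721), in 91.9% and 86.3% of thinned cells. Tnfaip6 was at 124 (113 to 137) CPM and 206 (195 to 217) CPM, above the Dcn-scaled estimates of 17.9 and 2.32 CPM. The other members stayed low in these cells: Ptx3 was at 50.6 CPM at 9 h, beside a Dcn-scaled estimate of 54.2 CPM, and Tnc at 2.53 CPM beside 2.22 CPM. An unnamed cluster of 1068 cells at 9 h, led by Ccrl2, Il1rn and Ccl3 and with all 8 neutrophil markers, had Thbs1 at 7606 CPM and Cd44 at 2104 CPM.

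In macrophage-like cells (322 at 2 h, 242 at 9 h), 2 of the 9 genes counted were at least 2-fold higher at 9 h (Ptx3, Thbs1), where 7.81% of genes were, and 4 lower (Postn, Has1, Has2, Tnfaip6), where 14.9% of genes were. Thbs1 was at 620.2 (588 to 653) CPM and 2244 (2170.0 to 2320.4) CPM, a ratio of 3.62 (3.40 to 3.85). Fn1 was at 902 (863 to 942) CPM and 1182 (1128 to 1237) CPM, and the 10% of cells with most of it held 76.9% and 74.0% of its UMIs. Levels of Ptx3 (152 and 351 CPM) were close to the Dcn-scaled estimates of carried-over FAP RNA (135 and 312 CPM). The same holds for Tnfaip6, at 229 and 21.4 CPM beside estimates of 192 and 13.3 CPM. The 15 FAP markers summed to 3920 CPM at 2 h and 754 CPM at 9 h in macrophage-like cells, and Has2 had 21 and 0 UMIs. The part of carried-over FAP RNA in the levels of Ptx3, Tnfaip6, Postn, Has1 and Has2 was not tested.

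Tenocyte-like cells (80 at 2 h, 61 at 9 h) had the highest Tnc at both times. Of 9 genes counted, 3 were at least 2-fold higher at 9 h (Tnc, Vcan, Ptx3), where 20.1% of genes were, and 3 lower (Postn, Has1, Tnfaip6), where 21.1% of genes were. Tnc was at 1012 (941 to 1086) CPM at 2 h and 2034 (1909 to 2166) CPM at 9 h, a ratio of 2.01 (1.83 to 2.21), in 48.7% and 52.5% of thinned cells. Ptx3 was at 297 (259 to 338) CPM and 4842 (4647 to 5043) CPM, a ratio of 16.3 (14.2 to 18.8). Postn was at 408 (363 to 456) CPM and 25.0 (12.9 to 43.7) CPM, a ratio of 0.0614 (0.0314 to 0.109), and 1 cell held 99 of its 309 UMIs at 2 h. Has1 was at 616 CPM and 91.7 CPM, and Thbs1 at 5324 CPM and 3489 CPM. All 9 genes counted had ratios on the same side of 1 in tenocyte-like and FAP-like cells. Tnc, Ptx3, Has1 and Tnfaip6 were at least 2-fold higher or lower in both classes. The shares of all genes that did the same were not computed, so neither count sets these genes apart from others. The 15 FAP markers summed to 41422 and 18522 CPM in tenocyte-like cells, close to FAP-like cells, so Dcn could not be used to estimate carried-over RNA there.

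In satellite-like cells, the muscle stem cells, Tnc was at 14.2 (4.62 to 33.2) CPM at 2 h and 485 (404 to 576) CPM at 9 h. The 9 h value came from 128 UMIs in 69 cells, 39 of them in 1 cell, and the Dcn-scaled estimate was 17.4 CPM. Fn1, at 247 CPM at 2 h, had 65 of its 87 UMIs in 1 cell. In endothelial-like cells Thbs1 was at 800.3 (749 to 855) CPM and 1698 (1635 to 1763) CPM, beside S100a8-scaled estimates of carried-over neutrophil RNA of 323 and 938 CPM.

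**Figure D5:**
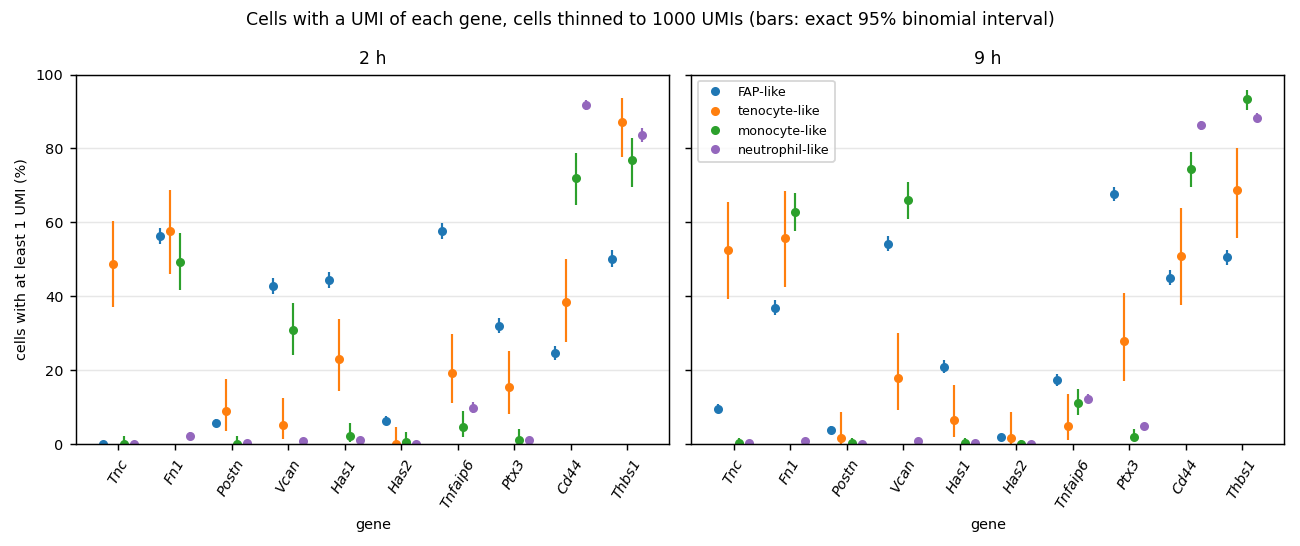
Share of cells with at least 1 UMI of each gene (y axis, percent) after thinning every cell to 1000 UMIs, in 4 classes at 2 h (left) and 9 h (right); bars are exact 95% binomial intervals. Neutrophil-like cells lie under 5% for Tnc, Fn1, Postn, Vcan, Has1, Has2 and Ptx3 and over 80% for Cd44 and Thbs1, while FAP-like cells go from 32.1% to 67.8% for Ptx3.

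A further 6 lists of genes around this matrix were read in FAP-like cells against the same 15.5% higher and 23.8% lower over all genes. Of 7 counted genes that make hyaluronan or its sugar precursors, 0 were at least 2-fold higher at 9 h and 3 lower. Ugdh, which makes UDP-glucuronic acid, was at 3209 CPM at 2 h and 781 CPM at 9 h, a ratio of 0.243. The other 2 were Gfpt2 (1180.2 and 470.2 CPM), an entry enzyme of the hexosamine pathway, and Ugp2 (196 and 67.8 CPM). Of 6 genes of hyaluronan breakdown, 1 was higher (Hyal2) and 3 lower, among them Hexa, a lysosomal enzyme, at 112 and 41.0 CPM. Of 5 counted receptors and binders, 2 were higher (Layn, Stab1) and 2 lower (Itih2, Itih5). Itih5, an inter-alpha-inhibitor heavy chain family member, was at 796 and 196 CPM, a ratio of 0.246.

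Of 13 counted provisional and matricellular genes outside the 10, 3 were at least 2-fold higher at 9 h and 6 lower. Sparc was at 4233 CPM at 2 h and 1263 CPM at 9 h, a ratio of 0.298, and Spp1 (osteopontin) at 14.1 and 58.0 CPM, a ratio of 4.11. Spp1 was highest in neutrophil-like cells at both times. Beside Spp1, the genes higher were Ccn4 and Ccn2 (connective tissue growth factor), Ccn2 at 536 and 2101 CPM. Of 12 counted receptors for fibronectin and tenascin, 2 were higher and 4 lower. The heparan sulphate proteoglycan Sdc4 was at 942 and 2219.8 CPM, while the fibronectin receptor chains Itga5 (421 and 423 CPM) and Itgb1 (429.9 and 444 CPM) differed by under 5%. Of 5 counted proteases that cut versican, 0 were higher and 3 lower, and Adamts5 was at 642 and 909.6 CPM. Genes of these lists other than Ugdh, Hexa, Itih5, Sparc, Spp1, Sdc4 and Adamts5 were named after their values were seen. The lists' median log2 ratios ran from -0.84 (proteases) to 0.02 (receptors), beside -0.02 over all genes.

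The genes whose levels ran most like each of the 10 were found by Pearson correlation of log2(CPM + 10) over 18 groups of class and time, among 4084 genes. All 18 groups come from the same 2 libraries, so the values are descriptions. Has1 ran most like Sdc2 (0.97), Dpt (0.97) and Itih5 (0.97), and Has2 like Col6a6 (0.95), Lgi2 and Mme. Ptx3 ran most like Fst (0.95), Prg4 (0.90) and Pdgfra (0.89). Tnfaip6 had no close match, with Mia3 at 0.79 the highest, then Mme and Jak1. Tnc was most like Ltbp2 (0.91), Angptl4 and Timp1, and Postn like Loxl3 (0.94), Mmp23 and Dkk2. Fn1 was most like Dse (0.94), Adam9 and Rrbp1, and Vcan like Tmed2 (0.82), Cd302 and Eif4e. Cd44 ran most like Fbxl5 (0.94), Gk and Gpat3, and Thbs1 like P4hb (0.90), Sra1 and Pxk. With Spearman correlation, 0 of the 3 named genes stayed among the 3 most alike for Postn, Vcan and Cd44.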

How the data were processed

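Single-cell RNA was measured in 2 libraries of injured quadriceps, 1 at 2 h and 1 at 9 h. The authors deposited UMI counts per gene and cell barcode. Per the submitters' processing notes, Cell Ranger 5.0.0 and mm10 were used. The annotation release and the strand setting of the counting were not stated.

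A barcode was kept with at least 200 genes, 500 UMIs and at most 20% mitochondrial UMIs. The minimums cost 513 barcodes at 2 h and 264 at 9 h, and the mitochondrial limit 316 and 379. Scrublet marked 6 cells (0.122%) at 2 h and 0 at 9 h, so its calls were set aside and doublets remain. Cells were log-normalised and clustered together (scanpy 1.11.5, 2000 variable genes without the 10 genes, 30 components, 15 neighbours, Leiden resolution 1), and clusters were named from 18 marker lists. UMIs were then summed per class and time. Poisson intervals were used for levels, conditional binomial ones for ratios and Clopper-Pearson ones for shares (scipy 1.17.1). UMIs of 1 library share its cells, so these cover counting error only. Carried-over RNA was estimated by scaling a class's profile to Dcn (FAP-like) or S100a8 (neutrophil-like). TMM scaling (edgeR 4.0.16, R 4.3.3) was an alternative. The ratio procedure was tested on simulated data.

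The genes, the marker lists and the 6 gene lists were chosen with earlier results of these data known. Named in the text are the 10 genes, from each list the gene with the highest level in FAP-like cells and those of at least 50 CPM with a ratio of at least 4 either way, and for each of the 10 the 3 genes most alike. Other list genes were named after their values were seen. Gene positions came from GENCODE M21, in which 32158 of 32285 gene identifiers matched, and promoters from RefSeq. The values of 1 gene of the lists are not reported here.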

Additional observations from a re-analysis of the deposited data

Results flagged for a closer look

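Of the 7 genes with enough UMIs in both classes, 4 had opposite directions, as did 43.7% of all genes: the level at 9 h lay on the other side of the level at 2 h in FAP-like cells than in monocyte-like cells. The difference between the classes was not tested, since each time has 1 library. For Fn1 the ratio of 9 h to 2 h was 0.393 in FAP-like and 1.30 in monocyte-like cells. For Thbs1 it was 0.626 and 2.83. For Tnfaip6 it was 0.131 and 1.47, and for Ptx3 4.37 and 0.233. The monocyte-like values of Tnfaip6 and Ptx3 rest on 1 cell each at 2 h, which held 127 of 195 and 210 of 219 UMIs. The Ptx3 contrast does not hold without the 1% of monocyte-like cells with most Ptx3.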

How the results depend on the processing

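With clusters 2 and 10 (no FAP marker among their leading genes) left out, the 9 h to 2 h ratio of Cd44 in FAP-like cells reversed to 0.922, and Postn was at 1.01. That setting holds mainly cluster 12 at 9 h beside clusters 3 and 7 at 2 h. From cluster 7 to cluster 12 the ratio was 1.25 for Cd44 and 0.520 for Postn. Shares of all genes were computed with the main processing only, so counts of genes under other processing have none beside them. In monocyte-like cells, 4 genes were higher and 0 lower without the cells of the highest doublet scores (225 at 2 h, 573 at 9 h), and 4 and 0 without the 1% of cells with most UMIs of each gene. Ptx3 reversed there to 3.38 and 3.32, and the Has1 ratio could not be computed in these 2 settings. With the mean of each cell's CPM, 1 gene was lower in monocyte-like cells. TMM scaling moved the 9 h to 2 h ratio of all genes by 0.08 (FAP-like) and 0.19 (monocyte-like) on the log2 scale. Under it, and with no cell filter, 4 in place of 5 genes were highest in FAP-like cells at 9 h. Without the 1% of cells with most Tnc, 5 Tnc UMIs were left at 2 h and the ratio was 610. Over 12 settings, Tnc, Has1, Tnfaip6 and Ptx3 kept their call in FAP-like cells, as did Vcan and Thbs1 in monocyte-like cells. Leaving out the S100a8-rich sub-clusters was chosen after seeing the data. Leaving out a replicate was not possible with 1 library per time. No paired analysis was possible because each time has 1 library. Genes under 20 UMIs were too shallow to compare.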

Other observations

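Classes too small for the comparisons also carried some of these genes. In 11 glial-like cells at 2 h, Postn had 43 UMIs, a level of 1189 (860 to 1601) CPM, and in 18 at 9 h it had 65 UMIs, a level of 905 (699 to 1154) CPM. The Dcn-scaled estimates of carried-over FAP RNA there were 0.334 and 12.3 CPM. In pericyte- or smooth muscle-like cells (32 and 35), Thbs1 was at 2533 (2330 to 2749) CPM at 2 h and 3016 (2773 to 3274) CPM at 9 h, and Tnfaip6 at 655 and 413 CPM. Tnc in these cells reached 180 (125 to 251) CPM at 9 h, with 24 of its 34 UMIs in 1 cell. Cd44 in dendritic-like cells was at 673 (629 to 718) CPM at 2 h and 359 (320 to 400) CPM at 9 h.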
